A study of Mus musculus with 96 samples.

Results

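Nuclear receptors are transcription factors that most often act as sensors: a steroid, thyroid hormone, retinoid, vitamin, bile acid or fatty acid enters the cell and binds the receptor, which then switches its target genes on or off. Of 37 listed receptor genes, 34 were represented on the array by at least 1 probe whose gene symbol, current or older, matched the list, out of 17711 genes named on the array. Rxra, Nr1i3 and Nr3c2 had no such probe and are not described. The 34 receptors had 59 probes, and 17 of them had more than 1. For those, the probe with the highest mean intensity over all arrays was used throughout.

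Several receptors mark a tissue. Hnf4a, Nr1h4 (the bile acid receptor), Nr1i2 (the receptor for drugs and other foreign compounds) and Nr5a2 are known for their work in the liver, where they govern bile acid, lipid and detoxification genes. Pparg drives the formation of fat cells and their lipid storage. The estrogen-related receptors Esrra, Esrrb and Esrrg act with coactivators of the Ppargc1 family on mitochondrial genes, and the retinoid X receptors Rxrb and Rxrg pair with many of the others.

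The mice were DBA/2J, an inbred laboratory strain, and were 12 weeks old after 6 weeks on a high-fat diet or a standard breeding diet. They had fasted for 2 hours when brown, gonadal, inguinal, mesenteric, perirenal and subcutaneous fat, liver and muscle (quadriceps) were dissected. Total RNA from each of the 8 tissues was measured on both diets with 6 biological replicates, which makes 16 groups and 96 arrays. The labels give neither the sex nor the composition of the diets, and they do not say which tissues came from the same animal.

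Values are log2 intensities, differences are on the log2 scale, and SE is the standard error of a difference. Precision is limited by the number of arrays. Levels of different receptors come from different probes and are not set against each other. The files gave no detection p-value, so a receptor was only described as above or not above the median of all probes, which lay between 6.85 and 6.88 in the 16 groups; close to that median the size of a difference is likely to be understated. Brightness, taken as the ratio of upper-quartile to median signal (as log2 where it served as a covariate), was uneven in fat. High-fat replicates 3 to 6 had 1.34 to 1.72 and were the dimmest of 12 in all 6 fat tissues. High-fat replicates 1 and 2 had 1.96 to 2.68, and the standard diet gave 1.70 to 2.49. Liver arrays had 1.25 to 1.36 and muscle arrays 1.30 to 1.39, below every standard-diet fat array. All 7 adipocyte markers lay above the median in every fat tissue, and 8 of 8 brown adipocyte markers did in brown fat. In muscle 9 of 9 skeletal muscle markers did, and in liver 7 of 8 hepatocyte markers, Tat being the exception. These counts alone do not mark a tissue. All 7 adipocyte markers also lay above the median in muscle and 5 of 7 in liver, and all 9 skeletal muscle markers in brown and perirenal fat. The adipocyte marker mean was 8.40 to 9.23 in standard-diet muscle, against 10.9994 (mesenteric) or more on every fat array. The part of fat cells in the muscle values was not tested. In whole tissue, fewer cells of a type and less RNA per cell cannot be told apart.

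Promoters of receptors with the clearest tissue pattern are shown first, because these genes were high together in liver or stood apart in fat. Sequences are RefSeq's for build GRCm38.p6, run from 250 bases before to 50 bases after the annotated start on the gene's own strand, and hold 300 bases each. Of the 34 receptors 31 had an entry, with 49 promoters in all; Hnf4g, Nr5a1 and Thra are named only. In the first 4 sequences capitals mark AGGTCA, the core motif of nuclear receptor binding sites, and GTTAAT, the core motif of Hnf1 factors. They lie at chr10:89506609-89506908 on the minus strand (Nr1h4), chr2:163546905-163547204 on the plus strand (Hnf4a, the second of 2 promoters), chr1:136960399-136960698 on the minus strand (Nr5a2, the first of 2) and chr16:38294775-38295074 on the minus strand (Nr1i2).
Nr1h4: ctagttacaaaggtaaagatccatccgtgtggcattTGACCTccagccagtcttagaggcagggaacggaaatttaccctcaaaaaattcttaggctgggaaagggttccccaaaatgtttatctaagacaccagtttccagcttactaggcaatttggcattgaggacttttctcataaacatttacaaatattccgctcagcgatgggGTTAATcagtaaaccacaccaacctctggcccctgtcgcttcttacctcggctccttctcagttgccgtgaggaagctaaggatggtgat
Hnf4a: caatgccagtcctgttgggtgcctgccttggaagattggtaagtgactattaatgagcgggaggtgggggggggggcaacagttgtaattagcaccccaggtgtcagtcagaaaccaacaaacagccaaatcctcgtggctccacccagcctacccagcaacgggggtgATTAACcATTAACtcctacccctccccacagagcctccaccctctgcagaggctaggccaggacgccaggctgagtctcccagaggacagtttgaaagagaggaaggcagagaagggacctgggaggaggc
Nr5a2: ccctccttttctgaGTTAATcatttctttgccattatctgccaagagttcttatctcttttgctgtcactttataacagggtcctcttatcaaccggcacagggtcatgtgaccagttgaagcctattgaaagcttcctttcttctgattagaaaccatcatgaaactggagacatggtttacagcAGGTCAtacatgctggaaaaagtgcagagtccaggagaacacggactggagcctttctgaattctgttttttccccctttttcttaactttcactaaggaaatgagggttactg
Nr1i2: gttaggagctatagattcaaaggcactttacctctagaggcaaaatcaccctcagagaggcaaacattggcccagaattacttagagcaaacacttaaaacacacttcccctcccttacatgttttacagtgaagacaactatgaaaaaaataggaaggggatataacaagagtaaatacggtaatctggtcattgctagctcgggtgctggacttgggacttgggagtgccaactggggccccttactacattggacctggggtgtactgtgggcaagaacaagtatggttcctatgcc
Capitals in the Pparg promoter mark TTGCNNAA, the site of C/EBP factors, and in the Esrra promoter GGGCGG, the GC box. The Pparg sequence is the last of its 3 promoters, that of the fat-cell form, at chr6:115421816-115422115 on the plus strand. The Esrra sequence is at chr19:6921759-6922058 on the minus strand.
Pparg: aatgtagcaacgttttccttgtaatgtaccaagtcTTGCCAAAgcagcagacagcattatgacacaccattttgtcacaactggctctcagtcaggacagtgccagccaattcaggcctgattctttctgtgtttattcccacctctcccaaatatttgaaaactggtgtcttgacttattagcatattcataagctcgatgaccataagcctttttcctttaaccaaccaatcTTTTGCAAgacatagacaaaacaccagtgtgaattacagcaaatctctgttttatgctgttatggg
Esrra: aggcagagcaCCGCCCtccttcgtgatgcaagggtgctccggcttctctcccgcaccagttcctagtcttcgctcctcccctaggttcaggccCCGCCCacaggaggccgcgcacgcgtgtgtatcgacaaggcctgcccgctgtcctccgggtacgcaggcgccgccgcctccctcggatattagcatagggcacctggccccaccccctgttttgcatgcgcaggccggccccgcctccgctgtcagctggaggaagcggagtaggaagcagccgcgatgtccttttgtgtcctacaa
All motifs were searched on both strands, and no 2 of the marked matches overlap. In Nr1h4, TGACCT (the reverse complement of AGGTCA) begins at -214 and GTTAAT at -40 relative to the start. Hnf4a holds ATTAAC, the reverse complement of GTTAAT, at -81 and again at -74. Nr5a2 holds GTTAAT at -236 and AGGTCA at -64, and these letters occur nowhere in the window of Nr1i2. In Pparg the matches begin at -215 and, as the reverse complement, at -16, and in Esrra both matches are CCGCCC, at -240 and -157. Such matches are common: AGGTCA occurs in 16.26% of all 32851 promoters and 10 of the 49 receptor promoters (20.41%), GTTAAT in 7.1% and 6 (12.24%), TTGCNNAA in 10.8% and 9 (18.37%), and GGGCGG in 35.66% and 23 (46.94%). The 4 liver receptor promoters and that of Pparg hold 2 to 7 CpG dinucleotides, against a median of 7 over all promoters (quartiles 3 and 20), whereas that of Esrra holds 25. A match is a description of the sequence, not a measured binding site.

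Of the 34 receptors 16 lay above the median of all probes in all 16 groups, 11 in some groups, and 7 in none: Rara, Thrb, Esr2, Pgr, Nr4a1, Nr0b1 and Nr0b2. Those 7 cover a retinoic acid receptor, a thyroid hormone receptor, an estrogen and the progesterone receptor, an immediate early receptor, and both receptors that lack a DNA-binding domain. Their probes say little about the tissues. The map of standard-diet means shows that the widest differences lay between liver and fat.

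**Figure D1:**
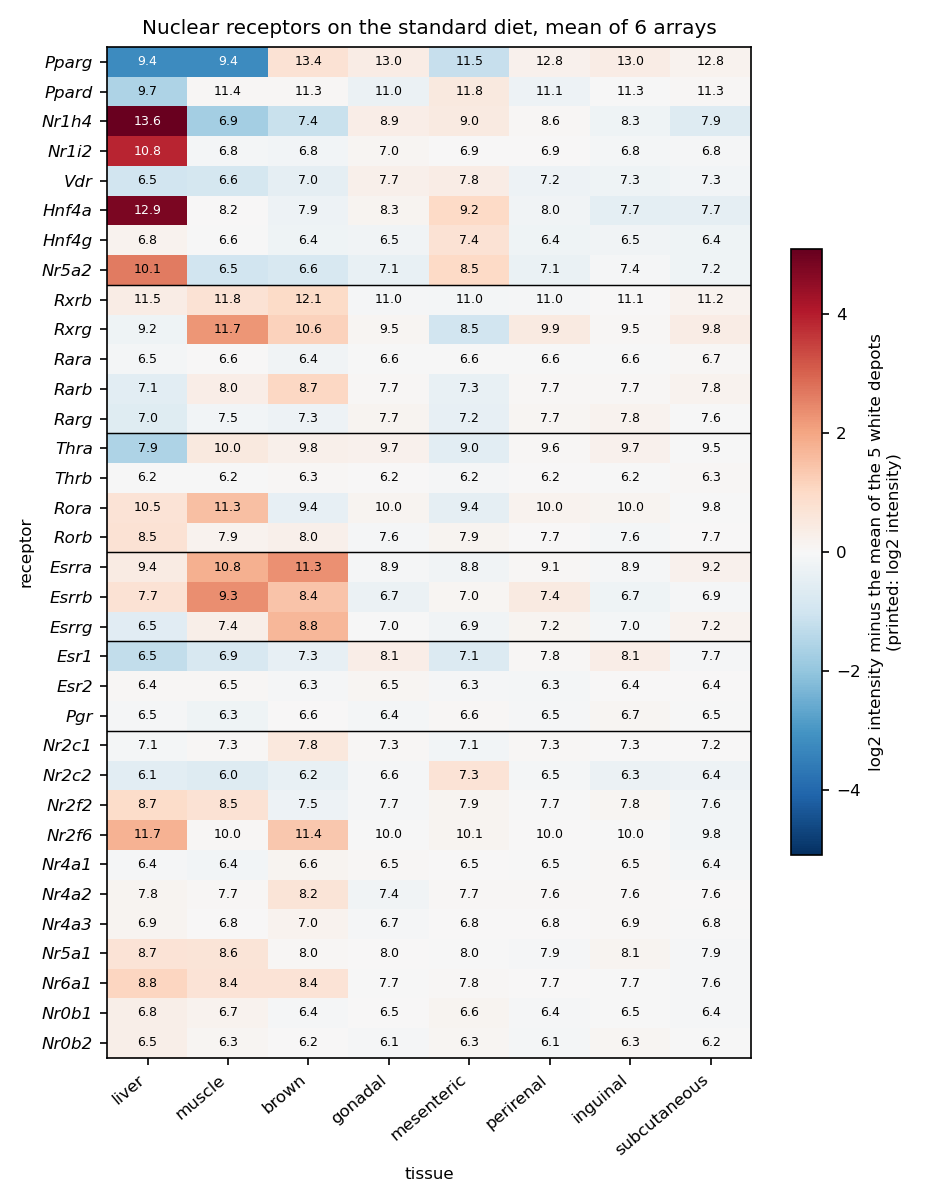
Mean log2 intensity of the 34 receptors on the standard diet (printed, n = 6 arrays per tissue), coloured by the difference from the mean of the 5 white depots; horizontal lines divide groups of related receptors. Nr1h4, Hnf4a, Nr1i2 and Nr5a2 are the deep red cells of the liver column, Pparg is low in liver and muscle, and Esrra and Esrrb are high in muscle and brown fat.

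Liver expressed the metabolic receptors at far higher levels than white fat on the standard diet, and it had little of the fat-cell receptor. Nr1h4 was 32.7-fold, Hnf4a 27.7-fold, Nr1i2 14.9-fold and Nr5a2 6.36-fold higher in liver than in the mean of the 5 white depots, and Pparg was 9.36-fold lower. With brightness as a covariate the log2 difference of Nr5a2 was 0.88 (adjusted p = 0.026), against 2.67 without it. On the standard diet brightness was 1.27 to 1.35 in liver and 1.73 to 2.49 in the white depots, without overlap. Brightness and tissue can therefore not be told apart in this contrast. In this contrast 25 of 34 receptors passed (15 higher, 10 lower; limma moderated test, Benjamini-Hochberg adjusted p under 0.05 over 34367 genes or unnamed probes), where 63.5% of all features passed. With brightness as a covariate 14 passed (9 higher, 5 lower). With a log2 difference of at least 1 as well, 10 receptors passed, where 13.3% of all features did: 6 were higher (Nr1h4, Hnf4a, Nr1i2, Nr5a2, Nr2f6, Nr6a1) and 4 lower (Pparg, Thra, Ppard, Esr1). The median size of the difference was 0.59 over the receptors and 0.25 over all features. With median scaling in place of quantile normalization the split was 10 higher to 17 lower, and 7 of the 25 called receptors changed sign (Rxrb, Rora, Rorb, Nr2f2, Esrra, Nr5a1 and Nr6a1), so their direction rests on the scaling. The same 10 receptors with a difference of at least 1 passed again on the high-fat arrays.

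The bile acid receptor had the largest difference, and the receptor for foreign compounds was also far higher in liver. Nr1h4 had log2 intensities of 13.54, 13.59 and 13.68 in liver (lowest, median and highest of 6 arrays), against 7.58, 8.63 and 10.29 over the standard-diet arrays of the white depots (difference 5.03, SE 0.18, adjusted p = 2.4e-28). Nr1i2, which switches on drug-metabolizing enzymes, had 10.37, 10.89 and 11.04 in liver, against 6.40, 6.91 and 7.84 in the white depots (difference 3.90, SE 0.10). For both genes no liver array came near the range of the white depots, and the Nr1i2 values of white fat lay around the median of all probes.

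Liver transcription factors were higher as well, Hnf4a by more than Nr1i2. Hnf4a, which maintains the hepatocyte programme, had 12.65, 12.93 and 13.20 in liver, against 7.44, 7.79 and 10.14 in the white depots (difference 4.79, SE 0.18). Nr5a2, a regulator of bile acid synthesis and of the exocrine pancreas, had 9.69, 10.18 and 10.29 in liver, against 6.82, 7.26 and 9.49 (difference 2.67, SE 0.15). In both cases the highest white fat array was a mesenteric one, and it still lay below every liver array. Nr2f6, an orphan receptor related to the COUP factors, had 11.61, 11.73 and 11.92 in liver, against 9.58, 9.94 and 10.49 in white fat (difference 1.77, SE 0.07; 0.45 under median scaling). Nr6a1, the germ cell nuclear factor, differed by 1.08 (SE 0.06), but by -0.03 under median scaling. The second probe of Nr2f6 had a mean of 6.98 in liver and 6.68 to 6.98 in the white depots. That of Nr5a2 had 7.36 in liver, against 6.83 to 6.95. The size of the liver difference of these 2 receptors thus depends on the probe.

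Receptors of fat-cell formation, thyroid hormone and estrogen were lower in liver. Pparg had 8.90, 9.41 and 9.78 in liver, against 10.96, 12.93 and 13.46 in the white depots, with no overlap (difference -3.23, SE 0.11). Ppard, a fatty acid sensor found in most tissues, and Thra, the thyroid hormone receptor with the broader expression, each differed by -1.59 (SE 0.09 and 0.10), and in neither did liver and white fat arrays overlap. Esr1, the main estrogen receptor, differed by -1.24 (SE 0.12) with overlapping arrays. Its other 3 probes were brightest in liver or muscle, so the direction for Esr1 depends on the probe. With brightness as a covariate, which cannot be told apart from tissue here, the difference of Esr1 was -0.48 (adjusted p = 0.331). All 3 Pparg probes were lowest in liver or muscle and highest in brown fat, and both Thra probes were lowest in liver.

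Skeletal muscle had Esrrb, Rxrg and Esrra at higher levels than white fat and Pparg and Nr1h4 at lower levels. Of the 34 receptors 20 passed in muscle over white fat (13 higher, 7 lower; limma), where 59.7% of all features passed, and 6 passed with a difference of at least 1, where 12.1% did. All 6 passed again on the high-fat arrays. On the standard diet brightness was 1.35 to 1.39 in muscle and 1.73 to 2.49 in the white depots, without overlap. Brightness and tissue can therefore not be told apart in this contrast either. Median scaling gave 8 higher to 19 lower and turned the sign of 8 called receptors (Rxrb, Rarb, Thra, Rorb, Nr2f2, Pgr, Nr5a1 and Nr6a1), none of them among the 6.

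Esrrb had 9.16, 9.31 and 9.55 in muscle, against 6.34, 6.82 and 8.38 in the white depots (difference 2.38, SE 0.13). Rxrg, the retinoid X receptor known from muscle, had 11.54, 11.73 and 11.84 in muscle, against 8.07, 9.58 and 10.00 (difference 2.25, SE 0.09). Esrra, a regulator of mitochondrial genes, had 10.59, 10.76 and 10.97 in muscle, against 8.39, 8.98 and 9.43 (difference 1.81, SE 0.09). In each of these 3 every muscle array lay above every white fat array. Rora, a receptor of the clock and of lipid metabolism, had 11.16, 11.39 and 11.44 in muscle, against 8.93, 9.92 and 10.36 in white fat (difference 1.52, SE 0.13), but 0.30 with an adjusted p of 0.118 under median scaling. The second probe of Rora had a mean of 7.10 in muscle and 6.89 to 7.17 in the white depots. That of Esrrb had 8.15 in muscle, against 7.21 to 7.35. Pparg and Nr1h4 were lower in muscle, by differences of -3.19 (SE 0.11) and -1.72 (SE 0.18). Muscle arrays had 8.85, 9.55 and 9.77 for Pparg and 6.49, 6.72 and 7.52 for Nr1h4.

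Brown fat had all 3 estrogen-related receptors at higher levels than white fat, and with them Rxrg, Nr2f6 and Rarb. Of the 34 receptors 22 passed in brown over white fat (14 higher, 8 lower; limma), where 37.6% of all features passed, and 7 with a difference of at least 1, where 6.66% did. The median size was 0.33 over the receptors and 0.12 over all features. Those 7 passed again on the high-fat arrays, and median scaling turned the sign of 1 called receptor, Thra.

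Esrra had 11.06, 11.30 and 11.62 in brown fat, against 8.39, 8.98 and 9.43 in the white depots (difference 2.35, SE 0.09, 5.09-fold). Esrrg, known from heart, muscle and brown fat, had 8.28, 8.77 and 9.20 in brown fat, against 6.68, 6.98 and 7.75 (difference 1.71, SE 0.11). Esrrb had 8.28, 8.35 and 8.69 in brown fat, against 6.34, 6.82 and 8.38 (difference 1.45, SE 0.13). Esrra and Esrrg separated completely, while 1 white fat array of Esrrb, from perirenal fat, reached into the brown range. Nr2f6 had 11.06, 11.36 and 11.68 in brown fat, against 9.58, 9.94 and 10.49 (difference 1.39, SE 0.07). Rxrg had 10.20, 10.59 and 10.88, against 8.07, 9.58 and 10.00 (difference 1.16, SE 0.09), again without overlap. Nr1h4 was the lower one, with 7.02, 7.38 and 8.05 in brown fat, against 7.58, 8.63 and 10.29 (difference -1.15, SE 0.18). Smaller differences with the same sign on both diets were those of Rarb (1.06), Rxrb (0.98) and Pparg (0.76). Other probes of the same genes differed less. The second probe of Esrrb had a mean of 7.43 in brown fat and 7.21 to 7.35 in the white depots. That of Nr2f6 had 7.10, against 6.68 to 6.98. The other Esrrg probes had 6.44, against 6.34 to 6.46, and 6.69, against 6.56 to 6.67.

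All 9 skeletal muscle markers also lay above the median of all probes in brown fat, where their mean was 10.9 to 13.6 on high-fat arrays and 12.8 to 13.6 on standard-diet arrays, against 15.1 to 15.2 in muscle. On high-fat replicate 3, the brown fat array with the lowest muscle marker mean (10.88), Esrra was 10.86, Esrrb 8.68, Esrrg 8.54 and Rxrg 10.51. These lie within or just below the range of the other brown fat arrays and above the white depot medians. That array still held muscle signal, with Atp2a1, 1 of the muscle markers, at 12.65. The part of muscle in the brown fat levels was not tested.

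**Figure D2:**
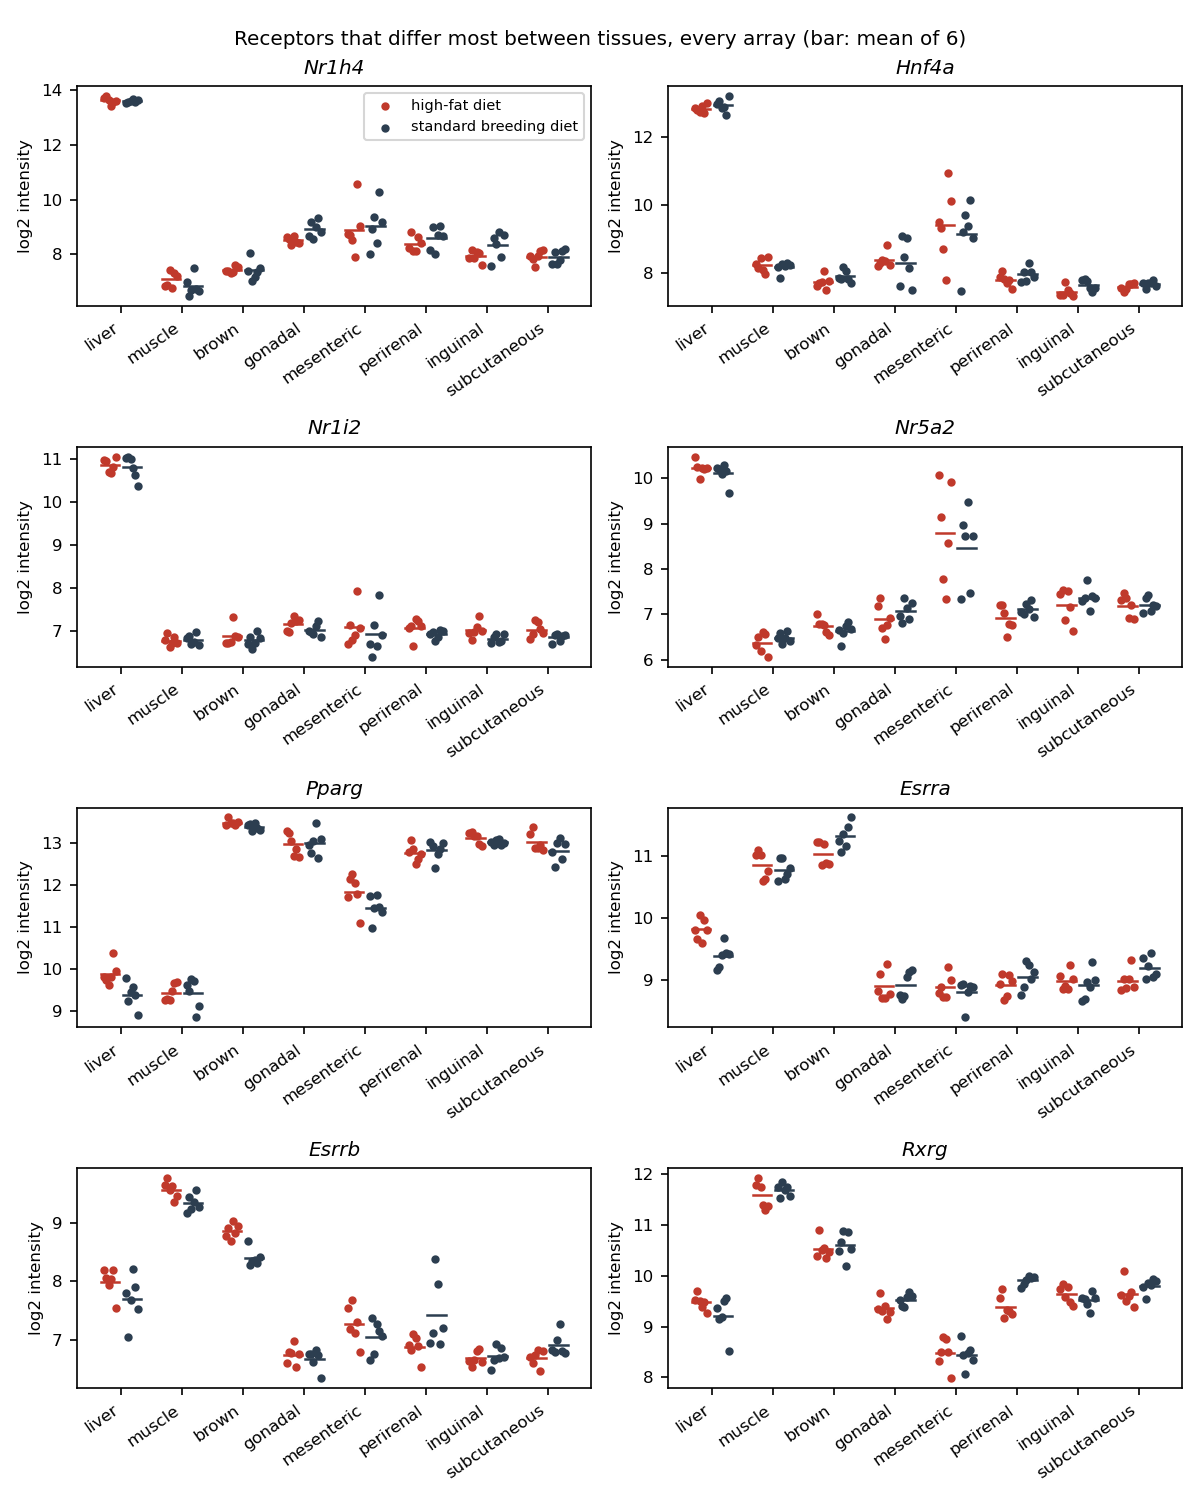
Log2 intensity of 8 receptors on every array, by tissue, with high-fat arrays left of standard-diet arrays; bars are means of 6 arrays. Liver stands alone for Nr1h4, Hnf4a and Nr1i2, muscle and brown fat lie above white fat for Esrra, Esrrb and Rxrg, and mesenteric fat has the widest spread for Hnf4a, Nr1h4 and Nr5a2.

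Between white depots the receptors differed less than between tissues, with a median size of 0.104 over the receptors and 0.0547 over all features. Of the 34 receptors 5 passed in intra-abdominal over subcutaneous white fat (gonadal, mesenteric and perirenal against inguinal and subcutaneous; 3 higher, 2 lower; limma), where 10.5% of all features passed, and 0 passed with a difference of at least 1, where 0.611% did. Median scaling called 3 higher and 4 lower, the high-fat arrays called 11, and 8 passed without standard-diet replicate 1 of gonadal and mesenteric fat. Hnf4a had 7.46, 8.22 and 10.14 in intra-abdominal fat, against 7.44, 7.71 and 7.81 in subcutaneous white fat (difference 0.81, SE 0.15). Nr1h4 had 8.01, 8.88 and 10.29, against 7.58, 8.11 and 8.80 (difference 0.73, SE 0.15). Pparg differed by -0.49 (SE 0.09), Nr2c2, an orphan receptor, by 0.44 (SE 0.10) and Rxrg by -0.36 (SE 0.08), each with overlapping arrays. Without the mesenteric arrays, an alternative chosen after seeing the data, Nr1h4 kept 0.63 (adjusted p = 0.0081), whereas Hnf4a had 0.47 (adjusted p = 0.077), Nr2c2 0.19, Pparg -0.01 and Rxrg 0.06.

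Markers of other organs were high in mesenteric fat, and several receptors of liver, gut and pancreas spread widely there. All 12 exocrine pancreas markers lay above the median there, with a mean of 14.7 to 15.4 on high-fat arrays and 13.8 to 15.4 on standard-diet arrays, except standard-diet replicate 1, which had 7.49. That array also had the lowest standard-diet values of Hnf4a (7.46), Nr5a2 (7.34), Hnf4g (6.46) and Nr2c2 (6.63). The other mesenteric values ran from 7.79 to 10.94 for Hnf4a, from 7.33 to 10.07 for Nr5a2 and from 6.50 to 8.53 for Hnf4g, a relative of Hnf4a in gut and pancreas. Replicate 5 of both diets had high Vil1, a gene of absorptive epithelia such as the intestinal lining, chosen after its values were seen, at 11.08 on the high-fat diet and 10.53 on the standard diet, with 6.72 to 8.83 on the other 10 arrays. Fabp2, a fatty acid binding protein of the intestinal lining, had 6.28 and 6.14 on the replicate 5 arrays and 5.84 to 6.70 on the others. All these values lay below the median of all probes, where a probe says little about its gene. The replicate 5 arrays had the highest mesenteric values of Nr1h4 (10.56 and 10.29), Hnf4a (10.94 and 10.14) and Vdr, the vitamin D receptor (9.64 and 9.29). Of the 8 hepatocyte markers 5 lay above the median in mesenteric fat and Alb, Tat and Fgb did not. Their mean was 7.18 to 8.64 on high-fat arrays and 6.98 to 8.11 on standard-diet arrays, highest on replicate 5 of each diet, against 12.0 to 12.4 in liver. Alb had 6.03 to 6.50 on the mesenteric arrays, against 9.15 to 9.95 in liver. The part of these other cells in the mesenteric receptor levels was not tested.

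**Figure D3:**
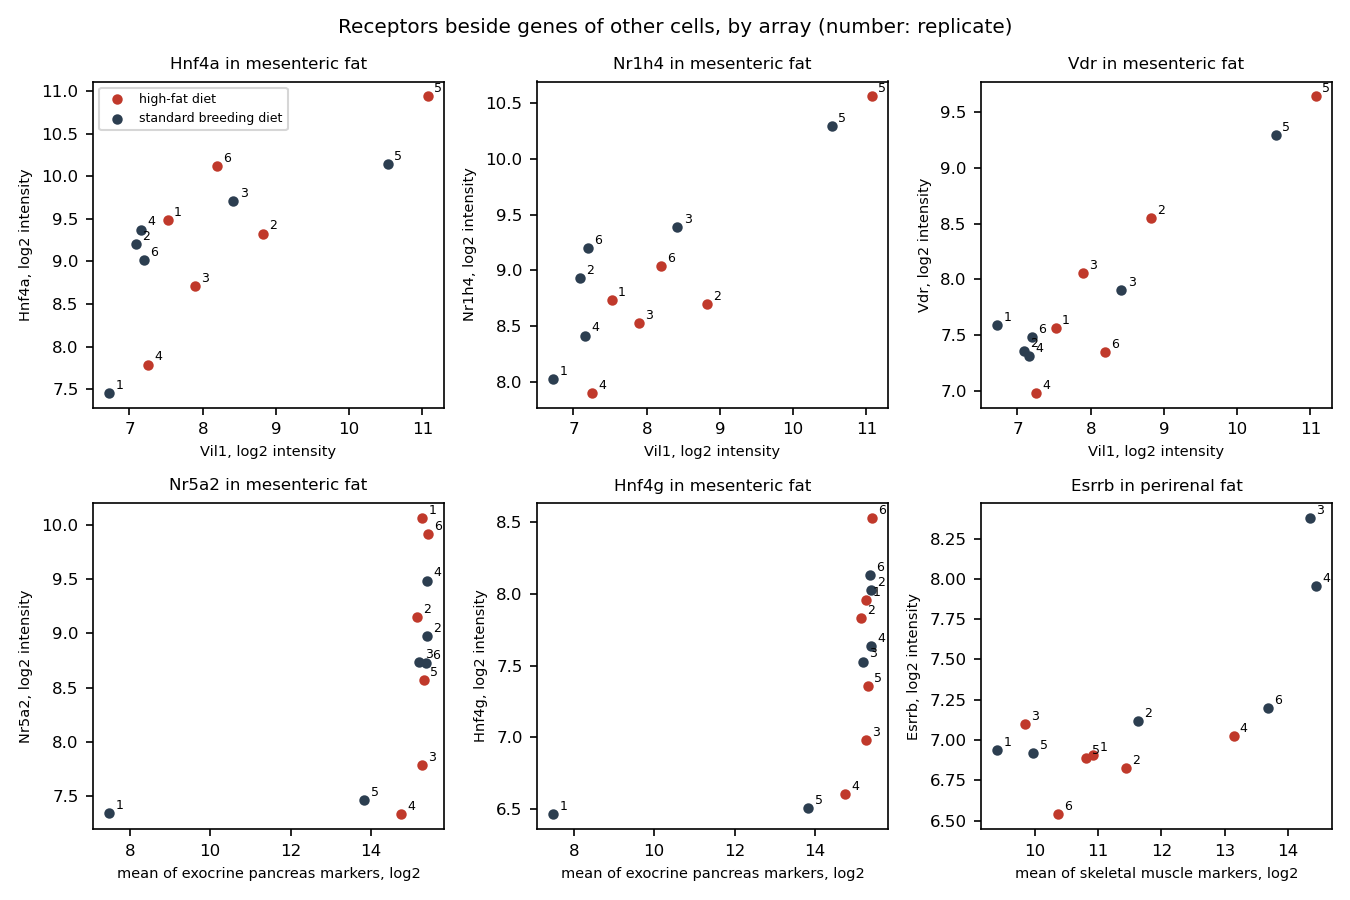
Log2 intensity of a receptor against Vil1, the exocrine pancreas markers or the skeletal muscle markers, for the 12 mesenteric (first 5 panels) or perirenal (last panel) arrays; numbers are replicates. Replicate 5 of both diets is highest in Vil1 and in Hnf4a, Nr1h4 and Vdr, mesenteric standard-diet replicate 1 is low in pancreas markers, and perirenal Esrrb is highest on standard-diet replicates 3 and 4.

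The high-fat diet changed few receptors, and by less than the tissues did. Within tissues 27 receptors were tested, 18 of them in all 8 and 9 in some, and the 7 that lay above the median in no group were tested in none. In 183 tests of a receptor in a tissue 13 passed (5 higher and 8 lower on the high-fat diet), which is 7.1%, where 12.3% of the 144577 tests of all features passed. The 13 calls involved 11 receptors, Thra and Nr2f6 in 2 tissues each. The largest difference of any size was that of Esrrb in perirenal fat (-0.66), which did not pass.

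**Figure D4:**
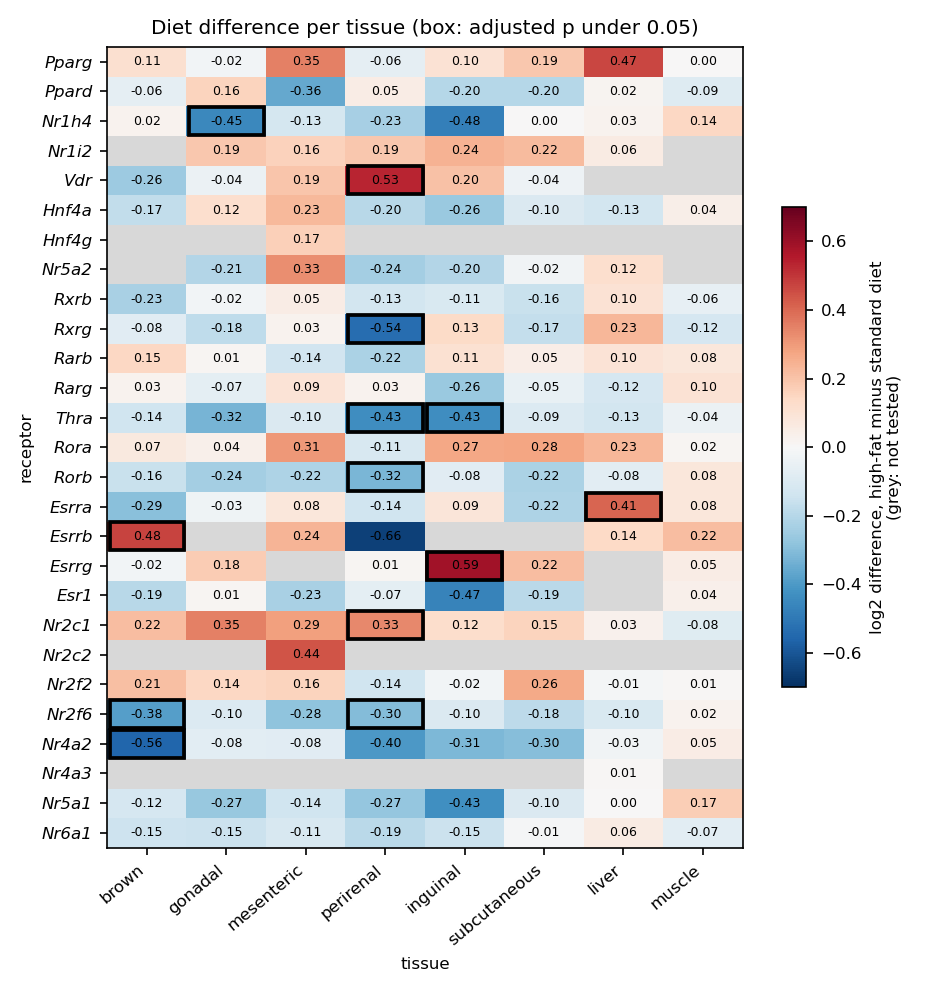
Log2 difference, high-fat minus standard diet, of the 27 tested receptors in 8 tissues (n = 6 arrays per diet); boxes mark an adjusted p under 0.05 and grey cells were not tested. Perirenal fat holds 6 of the 13 boxed cells, and no cell of Pparg, Ppard or Hnf4a is boxed.

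Perirenal fat had more called receptors than any other tissue, at a share near that of all features. Here 6 of 24 passed (2 higher, 4 lower; limma, adjusted over all features of the tissue), where 26.5% of all features passed (13.3% higher and 13.3% lower). Rxrg fell: the high-fat arrays had 9.75, 9.90 and 10.34 (lowest, median and highest), against 10.37, 10.54 and 10.60 on the standard diet (difference -0.54, SE 0.10, adjusted p = 0.0017). Vdr rose, with 7.73, 7.95 and 8.15 on the high-fat diet, against 7.17, 7.46 and 7.61 on the standard diet (difference 0.53, SE 0.10, adjusted p = 0.0022). The 2 diets did not overlap in either gene, nor in Rorb, a receptor best known from the retina and brain, which had 7.38, 7.80 and 7.96 on the high-fat diet, against 8.01, 8.06 and 8.14 (difference -0.32, SE 0.10, adjusted p = 0.031). The second probe of Rorb gave -0.06 (adjusted p = 0.682), and with a replicate block the adjusted p of Rorb was 0.0508. Thra (-0.43, SE 0.13, adjusted p = 0.028) and Nr2f6 (-0.30, SE 0.09, adjusted p = 0.025) also fell and the orphan receptor Nr2c1 rose (0.33, SE 0.10, adjusted p = 0.020), with overlapping arrays. The second probe of Thra gave -0.41 without passing (adjusted p = 0.058). Those of Vdr (0.11) and Nr2f6 (-0.28) did not exceed the median of all probes and were not tested.

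Other cells moved with diet and with single arrays in perirenal fat. The mean of the 8 macrophage markers, all above the median, was 11.2 to 12.2 on high-fat arrays, against 9.16 to 10.1 on standard-diet arrays. The skeletal muscle markers, 9 of 9 above the median, had a mean of 9.85 to 13.1 on high-fat arrays, against 9.40 to 14.4 on standard-diet arrays, where replicates 3, 4 and 6 stood at 14.35, 14.44 and 13.68. The values of Esrrb were 8.38, 7.96 and 7.20 on those 3 arrays, while the remaining standard-diet arrays had 6.92 to 7.12 and the high-fat arrays 6.54 to 7.10, on the scale of all arrays. Mesothelial markers, 6 of 7 above the median and Upk1b not, had a mean of 7.70 to 8.003 on high-fat arrays, against 7.96 to 8.67 on standard-diet arrays. Without standard-diet replicates 3, 4 and 6, an alternative chosen after seeing the data, 3 of the 6 calls held: Rxrg (-0.48, adjusted p = 0.034), Vdr (0.48, adjusted p = 0.030) and Thra (-0.59, adjusted p = 0.0096). With fewer arrays Rorb (-0.31), Nr2c1 (0.35) and Nr2f6 (-0.35) no longer passed, at differences close to those of all 12 arrays. The part of macrophages and mesothelium in these differences was not tested.

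In brown fat Esrrb rose and Nr4a2 and Nr2f6 fell on the high-fat diet. These were 3 of 22 receptors tested (1 higher, 2 lower; limma), where 15% of all features passed (6.77% higher and 8.27% lower). Esrrb had 8.61, 8.81 and 8.98 on the high-fat diet, against 8.21, 8.28 and 8.62 on the standard diet (difference 0.48, SE 0.09, adjusted p = 0.0032), and only standard-diet replicate 1 reached the high-fat range. Its second probe gave 0.07 (adjusted p = 0.629). Nr4a2, an immediate early receptor, had 7.39, 7.60 and 7.82 on the high-fat diet, against 7.75, 8.22 and 8.48 (difference -0.56, SE 0.12, adjusted p = 0.0087), and its second probe gave -0.31 (adjusted p = 0.027). Nr2f6 had 10.80, 10.99 and 11.26, against 11.09, 11.40 and 11.73 (difference -0.38, SE 0.12, adjusted p = 0.043), and without high-fat replicate 3, the array low in muscle markers, its difference was -0.36 (adjusted p = 0.082). The second probe of Nr2f6 gave -0.18 (adjusted p = 0.499). The diets overlapped for Nr4a2 and Nr2f6. Macrophage markers had a mean of 8.51 to 9.49 on high-fat arrays (8 of 8 above the median), against 7.69 to 8.64 on standard-diet arrays (7 of 8, Itgax not), and their part was not tested.

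In inguinal fat 2 of 23 receptors passed, where 23.6% of all features did (11% higher and 12.7% lower). Esrrg rose, with 7.23, 7.81 and 8.12 on the high-fat diet, against 6.81, 7.13 and 7.49 on the standard diet (difference 0.59, SE 0.14, adjusted p = 0.0076). Its other probes did not exceed the median of all probes, were not tested and gave -0.06 and -0.03. Thra fell, with 9.76, 9.98 and 10.14 on the high-fat diet, against 9.98, 10.45 and 10.73 (difference -0.43, SE 0.12, adjusted p = 0.016), and its second probe gave -0.60 (adjusted p = 0.0070). The ranges of the 2 diets overlapped for both. Median scaling called 2 receptors in this tissue, both lower, neither of them Esrrg or Thra. Macrophage markers had a mean of 9.90 to 10.8 on high-fat arrays, against 8.997 to 9.78 on standard-diet arrays. Brown adipocyte markers had a mean of 9.54 to 10.2 on high-fat arrays (6 of 8 above the median, Dio2 and Zic1 not), against 9.07 to 10.0 on standard-diet arrays (5 of 8, Elovl3, Dio2 and Zic1 not), and 3 of the 6 tested were higher on the high-fat diet, among them Ucp1 (2.22). The part of either cell type was not tested.

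In gonadal fat Nr1h4 alone passed, 1 of 23 receptors where 12.2% of all features passed (6.12% higher and 6.05% lower). It had 8.92, 9.09 and 9.30 on the high-fat diet, against 9.15, 9.55 and 9.99 on the standard diet, with overlap (difference -0.45, SE 0.13, adjusted p = 0.039). Macrophage markers had a mean of 10.2 to 11.2 on high-fat arrays, against 9.25 to 9.98 on standard-diet arrays. The mesothelial markers, 6 of 7 above the median and Upk1b not, had a mean of 8.86 to 9.22 on high-fat arrays, against 8.91 to 9.58 on standard-diet arrays. Skeletal muscle markers had 7.56 to 7.75 on high-fat arrays (5 of 9 above the median), against 8.17 to 11.7 on standard-diet arrays (8 of 9, Myh4 not), and without standard-diet replicate 1, the highest of them, Nr1h4 differed by -0.51. Within the standard diet Hnf4a was highest on replicates 2 and 4 (9.10 and 9.04), the arrays with the highest Krt8, a keratin of epithelial linings chosen after its values were seen (11.12 and 10.99), and with the highest Vdr (8.03 and 8.26). The part of these other cells was not tested.

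Mesenteric and subcutaneous fat had no called receptor. In mesenteric fat 0 of 25 passed by limma, where 0.648% of all features passed (0.253% higher and 0.396% lower), and 2 had an unadjusted p under 0.05: Ppard (difference -0.36, adjusted p = 0.176) and Nr2c1 (0.29, adjusted p = 0.252). In subcutaneous fat 0 of 23 passed by limma, where 19.9% of all features passed (8.78% higher and 11.1% lower), and 5 had an unadjusted p under 0.05, with Nr4a2 (-0.30, adjusted p = 0.052) and Rorb (-0.22, adjusted p = 0.064) the nearest.

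In liver Esrra rose on the high-fat diet, the only call among 22 receptors, where 1.12% of all features passed (0.598% higher and 0.527% lower). Its arrays had 8.34, 8.54 and 8.78 on the high-fat diet, against 7.93, 8.17 and 8.43 on the standard diet, with overlap at the edge (difference 0.41, SE 0.09, adjusted p = 0.037). Pparg in liver differed by 0.47 without passing (adjusted p = 0.117). The large liver receptors moved little: the differences were 0.03 for Nr1h4, -0.13 for Hnf4a, 0.06 for Nr1i2 and 0.12 for Nr5a2. In muscle 0 of 21 receptors passed by limma, where 0.192% of all features passed (0.0935% higher and 0.099% lower), and 2 had an unadjusted p under 0.05, Esrrb (0.22, adjusted p = 0.382) and Nr5a1 (0.17, adjusted p = 0.518).

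Some receptors leaned the same way in most tissues without passing in more than 2. Thra was lower on the high-fat diet in 8 of 8 tissues, Nr4a2, Nr2f6, Rorb and Nr6a1 in 7 of 8, and Nr2c1 and Rora were higher in 7 of 8. Nr1i2 was higher in all 6 tissues where it was tested, by 0.06 to 0.24. Pparg differed by -0.06 to 0.47 and passed in none. Tissues may come from the same mice, so the counts carry no test. Under median scaling the median of all features itself shifted by -0.18 to -0.29 in fat. None of the 13 called differences passed under that scaling (limma, adjusted p from 0.107 to 0.820). Relative to the shift all 13 kept their direction. Quantile normalization takes out such a shift too, so this is not a separate check.

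Brightness differed between the diets in fat, so the fat calls were also computed with it. With brightness as a covariate 5 of the 12 calls in fat still passed: Esrrb and Nr4a2 in brown fat, Rxrg and Vdr in perirenal fat and Esrrg in inguinal fat. With high-fat replicates 1 and 2 alone against the 6 standard-diet arrays, 2 passed, Vdr in perirenal fat (0.68, adjusted p = 0.021) and Esrrg in inguinal fat (0.71, adjusted p = 0.041), and all 12 kept their sign. For Esrrb in brown fat that difference was 0.45 (adjusted p = 0.18), for Rxrg in perirenal fat -0.26 (adjusted p = 0.16) and for Thra -0.20 in perirenal and -0.28 in inguinal fat. The fit on 2 high-fat arrays has little precision, and the part of brightness in the lost calls was not tested.

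**Figure D5:**
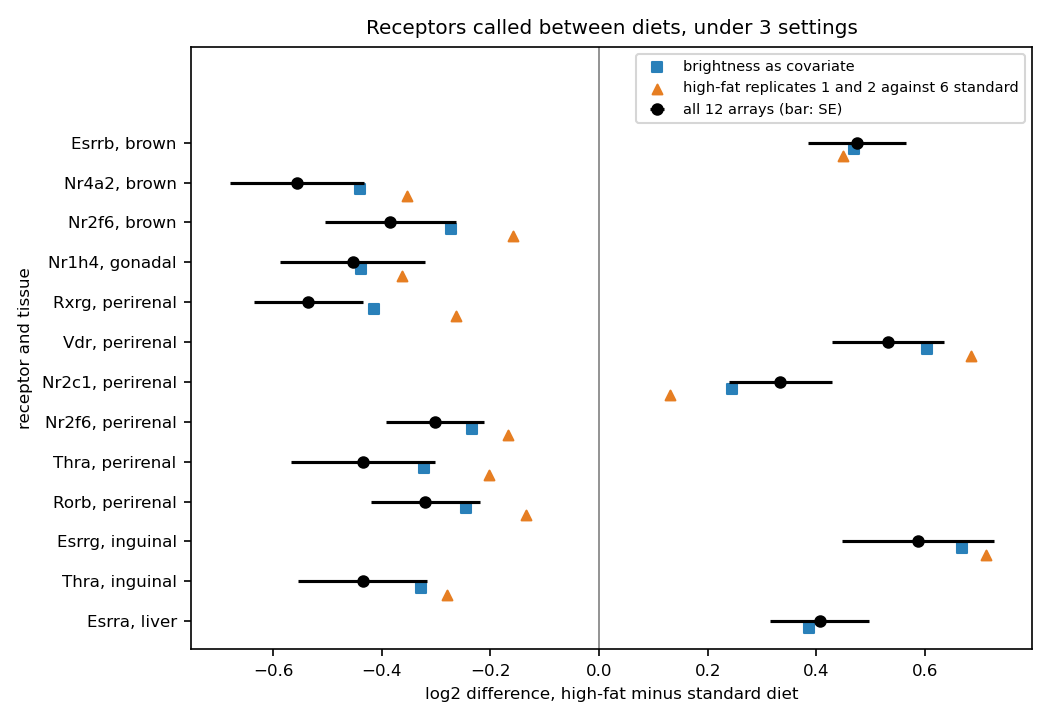
Log2 difference, high-fat minus standard diet, for the 13 called receptors: all 12 arrays (black, bar SE), brightness as covariate (blue squares) and high-fat replicates 1 and 2 against 6 standard-diet arrays (orange triangles; fat only). All settings lie on the same side of 0, and those of Vdr and Esrrg move outward while those of Nr2f6, Thra, Rorb and Nr2c1 move toward 0.

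Whether a receptor's response to diet differed among the 8 tissues was tested directly with a moderated F test. Of 24 receptors 5 passed, where 30.1% of all features passed: Esrrb (adjusted p = 0.000527), Rxrg (adjusted p = 0.008997), Esrra (adjusted p = 0.01006), Nr4a2 (adjusted p = 0.03926) and Nr2f2 (adjusted p = 0.04785). With the authors' values Nr4a2 (adjusted p = 0.071) and Nr2f2 (adjusted p = 0.123) did not pass and Ppard did (adjusted p = 0.046). Esrrb had differences of 0.48 in brown fat and -0.66 in perirenal fat, where muscle markers varied between arrays as described above. Esrra had 0.41 in liver and -0.29 in brown fat, and Rxrg -0.54 in perirenal fat and 0.23 in liver. Nr2f2, the COUP factor known from veins and fat-cell precursors, ranged from -0.14 to 0.26 and passed in no single tissue. The share of receptors that passed lay below that of all features.

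Genes that work with or under the receptors were taken as lists. Of 15 coregulators with a probe, 10 of 110 tests passed (3 higher, 7 lower). Ncoa2, a coactivator of many receptors, fell in brown (-0.33), perirenal (-0.31) and subcutaneous fat (-0.31). Among 15 target genes of Pparg in fat cells 33 of 112 tests passed, 8 higher and 25 lower. Slc2a4, the insulin-responsive glucose transporter, had a mean of 9.68 on the high-fat diet and 11.04 on the standard diet in perirenal fat (-1.37), and Cidea, a lipid droplet protein of brown and white fat, had 12.90 and 14.40 in subcutaneous fat (-1.50). Lpl, lipoprotein lipase, fell in liver (-1.29). These values stand beside a Pparg probe that passed in no tissue.

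Bile acid genes gave 1 higher and 6 lower calls in 60 tests. Cyp27a1, an enzyme of the alternative bile acid route, fell in inguinal (-0.86), perirenal (-0.60), gonadal (-0.55) and subcutaneous fat (-0.42), and Abcb11, the bile salt export pump, fell in liver (-0.63). In the liver 1 of 14 xenobiotic genes rose and 4 fell, where 1.12% of all features passed, among them the glutathione transferases Gstm3 (-1.15), Gsta1 (-0.95) and Gstm1 (-0.76). Thyroid hormone genes gave 10 higher and 9 lower calls in 51 tests: Thrsp, a lipogenic protein, fell in all 6 fat tissues (-0.27 in brown to -2.91 in perirenal fat) and rose in liver (1.61), Dio1, a deiodinase that activates thyroid hormone, rose in liver (0.54), and Ucp1, the uncoupling protein of heat production, rose in gonadal (2.35), inguinal (2.22), mesenteric (2.09) and perirenal fat (1.16). Retinoid genes gave 1 higher and 4 lower calls in 58 tests, with Retsat, a retinol saturase, lower in perirenal (-0.49), subcutaneous (-0.43) and gonadal fat (-0.37). Immediate early genes other than the Nr4a receptors gave 18 higher and 1 lower call in 93 tests. Atf3 (2.58), Fos (1.76) and Egr2 (1.72) rose in perirenal fat, while Nr4a2 differed by -0.40 there without passing. Over all features 12.3% of tests passed, so the coregulators (9.09%), the bile acid genes (11.7%) and the retinoid genes (8.62%) had shares near or below that, and the xenobiotic genes (14.8%), the Pparg targets (29.5%), the thyroid hormone genes (37.3%) and the immediate early genes (20.4%) above it; the lists were chosen with earlier results of these arrays known, so these shares carry no test. In the 6 fat tissues the coregulators had 3 higher and 7 lower calls, 1 and 2 with brightness as a covariate (0 in brown fat) and 0 on the bright arrays alone. For the Pparg targets these counts were 8 higher and 24 lower, 9 and 17 with the covariate, and 2 and 3 on the bright arrays alone. The immediate early genes had 18 higher and 1 lower, 16 and 0 with the covariate, and 7 and 0 on the bright arrays alone. The thyroid hormone genes had 8 higher and 9 lower, 7 and 8 with the covariate, and 1 and 5 on the bright arrays alone, where Ucp1 passed in none of its 4 tissues (adjusted p from 0.153 to 0.444).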

How the data were processed

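Total RNA of 8 tissues on 2 diets was hybridized as biotin-labelled cRNA to Illumina Mouse-6 BeadChips, per the labels' protocols. The authors deposited non-normalized signal intensity for 46632 probes (11.76 to 71625, array medians 107.4 to 244.4) without detection p-values. They also deposited log2 values, which were checked: quantile-normalizing the uncorrected signals of all arrays gave the same values to within 0.00191. The scanner software was not given in the sources used here. All value columns were matched to samples (0 left over), and no 2 arrays were copies (highest correlation 0.99554).

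Computed here: normexp background correction (offset 50; the planned method needing detection p-values could not be run), log2, and quantile normalization within each tissue for diet tests or over all 96 arrays for levels and tissue contrasts. Probes carried 1 symbol in 29976 cases, several in 10 and none in 16646; 1 probe per gene and all unnamed probes left 34367 features. Diet tests kept probes whose tissue mean exceeded the median of all probes. Tests used limma 3.58.1 in R 4.3.3 (two-sided moderated tests, Benjamini-Hochberg over all features, called under 0.05): 6 high-fat against 6 standard-diet arrays per tissue; contrasts of tissues over the 48 standard-diet arrays; and a moderated F test over all 96. The pipeline was tested on simulated data. Full values are given for up to 6 called receptors per comparison, by smallest p (diet) or largest difference (tissue); with none called, the 2 of smallest p are named, and up to 3 called genes per list and tissue. The members and lists were chosen with earlier results of these data known. The labels do not say whether equal replicate numbers mark the same animal. Same-numbered arrays did not deviate together throughout, so the main tests used no block. Tissues may still share animals. The tests over 48 and 96 arrays treated all arrays as independent, which the labels do not establish. Alternatives are in the closing section.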

Additional observations from a re-analysis of the deposited data

Results flagged for a closer look

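In 7 of 154 groups of 6 arrays checked, the highest or lowest array stood far from the others by Dixon's criterion, where chance alone marks about 1 group in 20. Esrrb in brown fat had standard-diet replicate 1 at 8.6231 on the within-tissue scale, with the others at 8.2066 to 8.3370, and at 8.6903 on the scale of all arrays, with the others at 8.2827 to 8.4113. This is the array that reached into the high-fat range. Hnf4a in muscle had standard-diet replicate 2 at 7.8584, below 8.1657 to 8.2919. Nr5a2 in liver had standard-diet replicate 6 at 9.6896, below 10.1018 to 10.2946. Nr6a1 in brown fat had standard-diet replicate 3 at 8.7434, above 8.2637 to 8.4271. Esrra in mesenteric fat had standard-diet replicate 3 at 8.3926, below 8.7977 to 8.9263. Esrrg in muscle had standard-diet replicate 6 at 8.0057, above 7.0950 to 7.4090.

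The response to diet differed among the 8 tissues, by the moderated F test, for Esrrb (adjusted p = 0.000527), Rxrg (adjusted p = 0.008997), Esrra (adjusted p = 0.01006), Nr4a2 (adjusted p = 0.03926) and Nr2f2 (adjusted p = 0.04785).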

How the results depend on the processing

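Median scaling left 0 called receptors in brown, gonadal and perirenal fat, in liver and in the test across tissues. The bright arrays alone called 0 in brown and gonadal fat, 1 in perirenal fat and 1 across tissues, which was Nr5a1 (adjusted p = 0.0086) and none of the 5 of the report. With brightness as a covariate 0 were called in gonadal fat, 2 in perirenal fat and 14 in liver over white fat. Without the filter on dim probes gonadal fat had 0, and with all probes of a gene inguinal fat had 4 and subcutaneous fat 1. The authors' values called 0 in liver (Esrra 0.40, adjusted p = 0.0732). Without perirenal standard-diet replicates 3, 4 and 6 that tissue had 3. For intra-abdominal over subcutaneous white fat the high-fat arrays called 11, leaving out gonadal and mesenteric standard-diet replicate 1 gave 8, and leaving out all mesenteric arrays gave 2. In the test across tissues, arrays sharing diet and number as a random block gave 9, with a correlation of 0.196 within blocks. Leaving out 1 array gave 2 called in brown fat (without high-fat replicate 3), 1 in gonadal and 0 in mesenteric fat (without standard-diet replicate 1). Reversed single values were Nr6a1 in liver over white fat under median scaling (-0.0276, adjusted p = 0.731) and Rxrg in intra-abdominal fat without mesenteric arrays (0.0579, adjusted p = 0.901). The causes were not tested. In all, 23 counts moved by more than 1.5 times and 71 did not; of single receptors 251 values kept their call and 41 lost it. Same-numbered arrays of the 2 diets did not deviate together throughout (from 2 of 6 pairs over 0.1 in mesenteric fat, with correlations of -0.437 to 0.521, to 4 of 6 in perirenal and subcutaneous fat and liver), nor those of the 8 tissues (97 of 168 pairs over 0.1 on the high-fat diet, highest 0.749, and 88 of 168 on the standard diet), so the numbers are not treated as pairs; a replicate block gave 2 in gonadal fat and 1 in subcutaneous fat, 7 in perirenal fat (without Rorb, adjusted p = 0.0508) and 3 in inguinal fat, and left the other counts as they were. Signal near the median of all probes limits what can be said of the 7 receptors never above it.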
